A study of Mus musculus with 4 samples.

Results

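Retinoic acid, the active form of vitamin A, is made in the testis from retinol that is carried in blood by retinol-binding protein. Retinol is first oxidised to retinaldehyde, and retinaldehyde dehydrogenases then make retinoic acid, which small cytosolic proteins bind and which acts through nuclear receptors. In the mouse testis this signal brings germ cells into differentiation and meiosis, and Stra8 is its best-known germ cell target. Described here are 6 genes of this route: the retinaldehyde dehydrogenases Aldh1a1 and Aldh1a2, the plasma retinol carrier Rbp4, the cellular retinoic acid-binding proteins Crabp1 and Crabp2, and Stra8. They were chosen by name, as every probe set (the group of oligonucleotides that measures a transcript) with 1 of these symbols as its only gene symbol. This gave 7 probe sets for the 6 genes, out of 12422 probe sets and 8251 genes named from a single symbol on the array.

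Total RNA from testes of hypogonadal (hpg) mice was measured on 4 one-colour oligonucleotide arrays, 3 titled T+T and 1 titled T+O. Hpg mice lack gonadotropin-releasing hormone and make little testosterone of their own, in all groups alike, and every label gives a first treatment with testosterone propionate, an ester of testosterone, followed by its withdrawal. By its description, T+T replicate 1 had 4 hours of renewed testosterone propionate, with no duration for the first treatment. T+T replicates 2 and 3 are titled the same way, but their descriptions give 2 weeks of first treatment and end at the withdrawal, which is also what the description of T+O replicate 1 says. The renewed testosterone of replicates 2 and 3 therefore rests on the title alone, so each tested gene is also given with T+T replicate 1 set against the other 3 arrays. Age, the number of animals per array and any pooling are not given in the sources used here, so p-values measure only the spread between these arrays.

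Before scaling, the median signal was 29.3, 25.4 and 48.3 on T+T replicates 1, 2 and 3 and 37.5 on T+O. Arrays were brought to a common trimmed mean, and all signals below are on that scale unless called deposited. Arrays correlated with Pearson's r between 0.943 and 0.968 across the 7453 probe sets whose mean signal passed a filter level of 22.7. For the control gene Gapdh, the signal at the 3′ end over that at the 5′ end was 0.886, 0.837 and 0.809 on the T+T arrays and 1.20 on T+O. That of pyruvate carboxylase was 1.93, 1.998 and 1.76 on the T+T arrays and 3.76 on T+O. T+O thus stood apart in both of these ratios, but not in that of Actb, which was 1.66, 1.40 and 1.17 on the T+T arrays and 1.53 on T+O. Their part in the results below was not tested. Sertoli, Leydig and peritubular markers passed the filter in 8 of 9, 6 of 7 and 4 of 4 measured genes, and spermatid markers in 6 of 6. Macrophage markers did so in 4 of 4, and of all genes 5677 of 8251 did. Without detection calls, passing the filter does not measure presence. In whole testis RNA, fewer cells of a type and less RNA per cell cannot be told apart.

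Retinoic acid receptors bind direct repeats of a 6-base half-site, so the start regions of the genes were searched on both strands for AGGTCA (in 16.3% of all windows described next), for GGGTCA (in 13.7%), for GGTTCA (in 10.4%) and for AGTTCA (in 14%). RefSeq start regions (GRCm38.p6, 250 bases before to 50 after a transcription start) were at hand for 5 of the 6 genes, in 7 windows. A match to at least 1 of the 4 half-sites was found in 3 of these windows, against 43.7% of all 32851 windows of this length. They are shown because they are the ones with a match, with the half-sites in capitals (TGACCC is GGGTCA on the other strand), 5′ to 3′ in the direction of the gene. The Stra8 window lies on the plus strand at chr6:34920698-34920997, the Aldh1a1 window on the plus strand at chr19:20601718-20602017 and the Rbp4 window on the minus strand at chr19:38125272-38125571.
Stra8 promoter: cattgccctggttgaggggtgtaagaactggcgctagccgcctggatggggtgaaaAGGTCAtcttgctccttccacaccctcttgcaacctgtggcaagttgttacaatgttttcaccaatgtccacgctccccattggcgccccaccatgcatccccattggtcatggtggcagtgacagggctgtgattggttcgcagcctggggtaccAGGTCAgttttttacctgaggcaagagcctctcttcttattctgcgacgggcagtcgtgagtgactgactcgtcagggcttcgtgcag
Aldh1a1 promoter: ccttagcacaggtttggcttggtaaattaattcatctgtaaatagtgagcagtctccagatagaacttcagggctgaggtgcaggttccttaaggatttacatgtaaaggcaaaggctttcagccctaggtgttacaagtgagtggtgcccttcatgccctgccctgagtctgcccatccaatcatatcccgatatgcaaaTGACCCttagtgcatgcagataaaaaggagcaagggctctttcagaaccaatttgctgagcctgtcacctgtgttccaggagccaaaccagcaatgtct
Rbp4 promoter: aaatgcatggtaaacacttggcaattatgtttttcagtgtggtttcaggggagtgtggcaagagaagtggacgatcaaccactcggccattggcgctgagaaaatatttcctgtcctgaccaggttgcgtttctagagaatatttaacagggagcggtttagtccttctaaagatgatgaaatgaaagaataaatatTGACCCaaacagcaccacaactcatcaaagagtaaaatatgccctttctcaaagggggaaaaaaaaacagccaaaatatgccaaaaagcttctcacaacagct
The Stra8 window held AGGTCA at 2 places, which 1.81% of all windows do. These began 194 and 38 bases before the start site, too far apart to form a direct repeat with a spacing of 1, 2 or 5 bases. No such repeat was found in any of the 7 windows, against 0.222%, 0.268% and 0.0974% of all windows for the 3 spacings. The androgen receptor half-site AGAACA, on either strand, was in none of the 7 windows, against 19% of all windows. A match describes letters only and is not a measured binding site.

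None of the 6 genes passed a test of T+T against T+O. Of the 7 probe sets, 5 passed the filter on low signal, and 0 of these 5 passed an adjusted p of 0.05 (limma over 7453 probe sets, Benjamini-Hochberg), where 0.0268% of all probe sets did. At an unadjusted p under 0.05 there were also 0 of 5, against 7.8% of all. All 3 T+T arrays lay on the same side of T+O for 3 of the 5 (Aldh1a2 and Crabp1 above, Stra8 below), against 53.3% of all probe sets, so this share is near the background. In the deposited signals, whose brightness differed between arrays, only Stra8 of these 5 kept all 3 T+T arrays on one side. The share of all probe sets that do so before scaling was not counted, so this does not set Stra8 apart. None of the 5 lay at least 1.5-fold to one side on all 3 T+T arrays, against 4.04% of all. With 1 array against 3, an exact two-sided permutation test of a single gene cannot give a p below 0.25, so the limma fit, in which the single T+O array borrows its spread from T+T, carries the test.

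**Figure D1:**
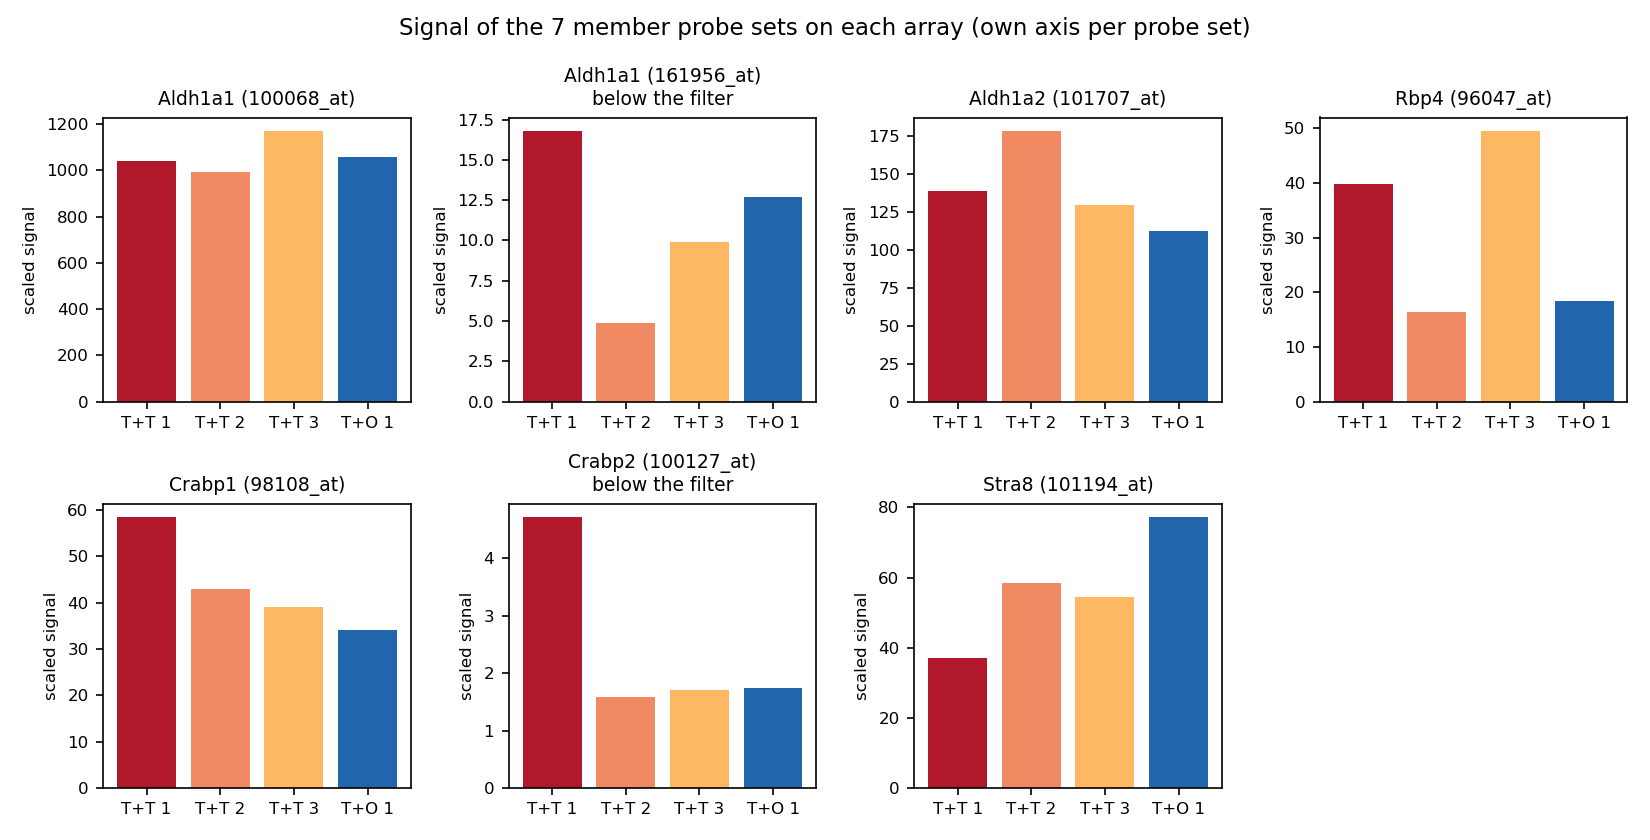
Scaled signal (vertical axis, from 0, own range for each probe set) of the 7 probe sets of the 6 genes on each array, 1 bar per array, with T+T replicates 1 to 3 in red to orange and T+O in blue. Stra8 was lower on each T+T array than on T+O, Aldh1a1 was nearly level on its bright probe set, and Rbp4 was high on T+T replicates 1 and 3 only.

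Aldh1a1, an enzyme that oxidises retinaldehyde to retinoic acid and is known from Leydig and Sertoli cells of the mouse testis, was nearly level. Its bright probe set, 100068_at, had 1039, 992 and 1170 on T+T replicates 1, 2 and 3, against 1056 on T+O. The T+O array fell inside the T+T range. The T+T mean was 1067 ± 92.0 (SD, n = 3), and the T+T minus T+O difference was 0.01 ± 0.18 (SE) on the log2(signal + 10) scale. The 95% interval runs from 0.759-fold to 1.34-fold, and the adjusted p was 0.995 (limma). This is the narrowest interval of the 5 tested probe sets, and it leaves out a change of 1.5-fold in either direction. It holds no measured spread of T+O, which is 1 array, so it does not show equal levels. The direction of so small a difference turned after median scaling, where it was -0.018. With T+T replicate 1 set against the other 3 arrays it was -0.04 ± 0.18 (SE). The second Aldh1a1 probe set, 161956_at, lay below the filter with 16.8, 4.91 and 9.90 in T+T and 12.7 in T+O, and at this signal it has no usable order. Aldh1a7, a rodent gene closely related to Aldh1a1, had 28.8, 32.9 and 28.8 in T+T and 32.5 in T+O, a log2 difference of -0.08. Cross-hybridisation between the pair was not tested.

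Aldh1a2, the retinaldehyde dehydrogenase known from mouse spermatocytes and essential for retinoic acid in the embryo, had a signal of 139, 179 and 130 on T+T replicates 1, 2 and 3, against 113 on T+O (probe set 101707_at). The groups did not overlap, although T+T replicate 3 was closer to T+O than to T+T replicate 2. The T+T mean was 149 ± 26.0 (SD, n = 3), and the log2 difference was 0.36 ± 0.24 (SE; limma, adjusted p = 0.78). In fold terms the 95% interval runs from 0.878 to 1.88, and without T+T replicate 2 the log2 difference became 0.23. With T+T replicate 1 set against the other 3 arrays, which ranged from 113 to 179, the difference was 0.007 ± 0.28 (SE) on the log2 scale. Other genes of meiotic spermatocytes, the cells this gene is known from, did not share 1 pattern. Of the 6 kept, Ccna1, Hspa2 and Pgk2 had all T+T arrays above T+O (29.1% of all genes; Pgk2 only 2 of 3 after median scaling), Sycp1 had all far below (24.5% of all genes), and Ldhc and Dmc1 overlapped. The meiotic cyclin Ccna1 had 423, 425 and 316 in T+T and 256 in T+O. The germ cell lactate dehydrogenase Ldhc had 5861, 6071 and 4713 in T+T and 5073 in T+O, but after quantile scaling all its T+T arrays lay below T+O, with a mean difference of -0.12. The summed signal of the 7 meiotic markers measured was 7535 to 9213 in T+T and 7853 in T+O, but it is mostly Ldhc and does not show the Sycp1 gap. The part of these cells in the Aldh1a2 values was not tested.

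Rbp4, which carries retinol from liver stores to tissues, varied most among the T+T arrays of the 5 tested probe sets. It had 39.8, 16.5 and 49.5 on T+T replicates 1, 2 and 3, against 18.4 on T+O (probe set 96047_at). T+T replicate 2 was thus the lowest of the 4 arrays, and the groups overlapped. The highest T+T array had 3.01 times the signal of the lowest. The log2 difference was 0.59 ± 0.49 (SE; limma, adjusted p = 0.84), and its 95% interval runs from 0.686-fold to 3.31-fold. T+O and T+T replicate 2 both lay under the filter level of 22.7, so this gene passed the filter through T+T replicates 1 and 3. A larger offset, the 50th percentile of all signals, brought the difference to 0.37. Without T+T replicate 2 it became 0.94, and without T+T replicate 3 it became 0.35, neither of which passed the test. Against the other 3 arrays, T+T replicate 1 differed by 0.49 ± 0.50 (SE) on the log2 scale. Liver and fat also make Rbp4. None of the 4 liver markers passed the filter, with Alb between 3.58 and 8.18 in T+T and at 5.12 in T+O. They summed to between 34.2 and 85.7 in T+T and to 58.6 in T+O, signals too dim to be ordered. The 3 fat markers measured summed to 328, 242 and 272 in T+T and 350 in T+O, with Adipoq at 91.9, 89.7 and 76.2 in T+T and 79.1 in T+O and Fabp4 below the filter. Most of that sum was Lipe, a lipase, with 229, 141 and 187 in T+T and 260 in T+O. The part of other tissue in the Rbp4 values was not tested.

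Crabp1, which binds retinoic acid in the cytosol and is known from mouse spermatogonia, had 58.4, 42.9 and 39.0 on T+T replicates 1, 2 and 3, against 34.1 on T+O (probe set 98108_at). All T+T arrays lay above T+O, with T+T replicate 1 the highest. The T+T mean was 46.7 ± 10.3 (SD, n = 3), and the log2 difference was 0.35 ± 0.31 (SE; limma, adjusted p = 0.86). The 95% interval runs from 0.771-fold to 2.10-fold. Without T+T replicate 1 the difference became 0.21. For 29.5% of all probe sets the T+T arrays all lay above T+O. T+T replicate 1 also lay above each of the other 3 arrays, as 25.6% of all probe sets did, with a difference of 0.50 ± 0.30 (SE) on the log2 scale (limma, adjusted p = 0.94).

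Crabp2, the second cytosolic carrier, which delivers retinoic acid to the receptor, was dim. It had 4.72, 1.59 and 1.71 on T+T replicates 1, 2 and 3, against 1.74 on T+O (probe set 100127_at). Each value lay under the filter level of 22.7, so Crabp2 has no main test, and without detection calls nothing can be said of its presence. In the fit with no filter its log2 difference was 0.10 ± 0.19 (SE; limma, adjusted p = 0.94), a value that the added offset of 10 holds close to 0.

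Stra8, which germ cells need to enter meiosis and which retinoic acid induces, was the 1 tested gene of the 6 with a lower signal on each T+T array. It had 36.9, 58.5 and 54.5 on T+T replicates 1, 2 and 3, against 77.2 on T+O (probe set 101194_at). The groups did not overlap, and T+T replicate 1 was the lowest. The T+T mean was 49.96 ± 11.5 (SD, n = 3), and the log2 difference was -0.56 ± 0.30 (SE). This did not pass the test (limma, unadjusted p = 0.10, adjusted p = 0.73), and the 95% interval runs from 0.418-fold to 1.10-fold. All 3 T+T arrays lay below T+O for 23.7% of all probe sets. Between the pair of arrays whose titles and descriptions match, T+T replicate 1 minus T+O was -0.89 for Stra8, 0.81 for Rbp4, 0.63 for Crabp1, 0.28 for Aldh1a2 and -0.02 for Aldh1a1, with no replicate check. By this pair, 2 of the 5 tested probe sets were at least 1.5-fold higher, against 6.83% of all, and 1 was at least 1.5-fold lower, against 11%. The 2 higher ones, Rbp4, which passed the filter through T+T replicates 1 and 3, and Crabp1, became 0.49 and 0.43 on the log2 scale under that larger offset, so that 0 of 5 were then 1.5-fold higher. Stra8 became -0.64 and stayed past 1.5-fold. The shares of all probe sets past 1.5-fold at that offset were not counted, so this does not set Stra8 apart. Set against the other 3 arrays, which ranged from 54.5 to 77.2, T+T replicate 1 was again the lowest, as it was for 26.3% of all probe sets. That difference was -0.63 ± 0.30 (SE) on the log2 scale (limma, unadjusted p = 0.068, adjusted p = 0.92). In that comparison 0 of the 5 passed the adjusted threshold (0% of all) and 0 had an unadjusted p under 0.05 (5.1% of all). Stra8 passed the threshold under neither reading of the labels, which share the same arrays.

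Germ cell markers did not all lie on the same side as Stra8. Dazl, an RNA-binding protein that germ cells need for their response to retinoic acid, had 63.5, 79.2 and 103 in T+T and 166 in T+O, a log2 difference of -0.96 (limma, adjusted p = 0.41). Its lowest array was T+T replicate 1, as for Stra8. The spermatogonial gene Uchl1 lay the other way with 359, 357 and 340 in T+T and 288 in T+O. Kit, the receptor of differentiating spermatogonia, had 41.3, 37.8 and 40.5 in T+T and 34.6 in T+O. Dmrt1, a regulator of the switch from spermatogonial division to meiosis, was nearly level with 67.5, 67.0 and 74.8 in T+T and 66.7 in T+O. The summed signal of the 7 spermatogonial markers measured was 569, 574 and 634 in T+T and 609 in T+O. Uchl1 is the largest part of it, and Uchl1 and Dazl offset each other in it, so the sum says little of the list as a whole. Of the 5 kept, 3 had all T+T arrays above T+O (29.1% of all genes), Dmrt1 only barely, and 1 had all below (24.5% of all genes). Sycp1, a meiotic gene downstream of this entry step, had the widest gap, with 13.5, 38.5 and 36.2 in T+T and 390 in T+O (limma, adjusted p = 0.105). That gap rests on the 1 T+O array. The other 5 kept meiotic markers had differences above 0, against 53% of all genes, with Ldhc below 0 after quantile scaling. The part of these germ cell genes in the Stra8 values was not tested.

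**Figure D2:**
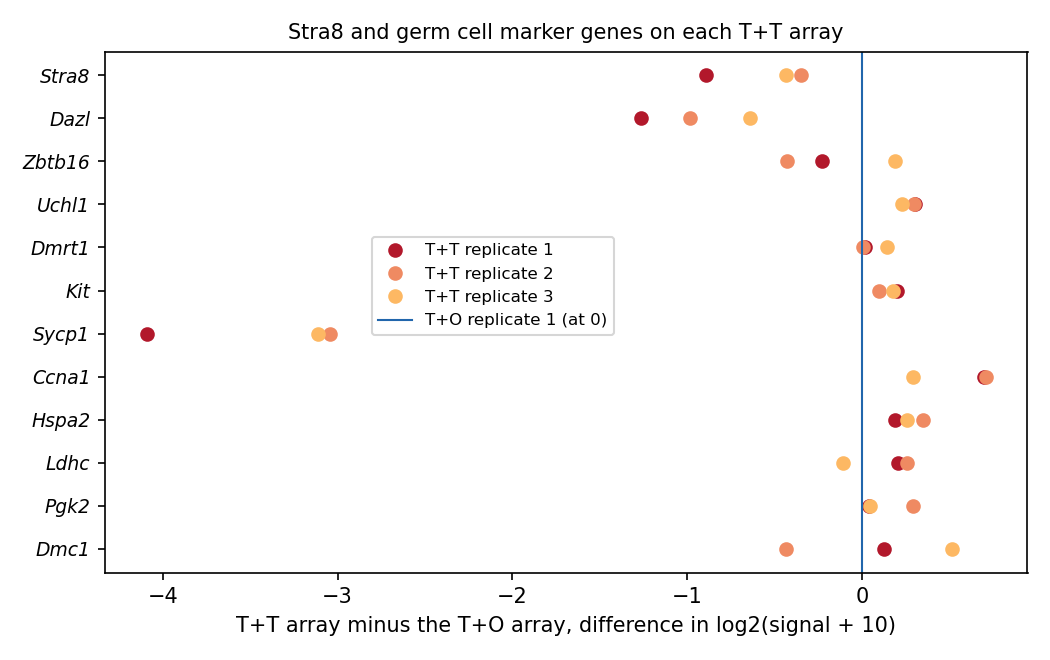
Difference of each T+T array from the T+O array on the log2(signal + 10) scale (horizontal axis) for Stra8 and the spermatogonial and meiotic marker genes that passed the filter, 1 point per T+T array and T+O as the line at 0. Stra8, Dazl and Sycp1 have all 3 points left of the line, while Uchl1, Kit, Dmrt1, Ccna1, Hspa2 and Pgk2 have all 3 to its right (2 of 3 for Pgk2 after median scaling).

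The wider retinoid route gave no gene past the test either. Of 48 further retinoid genes listed by role, 31 had a named probe set and 18 of these passed the filter. None of the 18 passed in either direction (limma, 0 at an adjusted p of 0.05 and 0 at an unadjusted p under 0.05, lowest adjusted p = 0.70), where 0% of the 5677 genes represented by their brightest probe set passed. All T+T arrays lay above T+O for 6 of the 18 and below for 2, against 29.1% and 24.5% of all genes. The median log2 difference was 0.11, against 0.02 over all genes. For 3 of the 18, T+O lay under the filter level, so that they passed through T+T.

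Among enzymes that convert retinol and retinaldehyde, 8 of 9 measured passed the filter, with 5 differences above 0 and 3 below, near the 53% above 0 among all genes. Of the 5, Adh5, at 0.03, lay below 0 after median scaling, and Rdh7, with T+O under the filter level, passed through T+T. Of the 3, Rdh11 was at -0.003, and its second kept probe set was at 0.07. Rdh7, a retinol dehydrogenase, had 35.7, 21.6 and 35.1 in T+T and 19.9 in T+O, a log2 difference of 0.43. Dhrs4, a reductase of retinaldehyde, had 84.2, 78.8 and 76.1 in T+T and 60 in T+O, a difference of 0.36 (limma, adjusted p = 0.77). On the other side were Adh1, an alcohol dehydrogenase that also takes retinol, with 50.8, 61.4 and 89.6 in T+T and 93.2 in T+O, and Dhrs3, which turns retinaldehyde back to retinol, with 25.4, 48.7 and 29.5 in T+T and 37.9 in T+O. Of these, Rdh7, Dhrs4 and Adh1 had groups that did not overlap. Among the 8 kept, all T+T arrays lay above T+O for 2 and below for 1, against 29.1% and 24.5% of all genes. The import and storage genes were dim: Stra6, the membrane receptor of retinol-binding protein, had 3.91, 10.5 and 5.30 in T+T and 9.05 in T+O, and none of the 4 measured passed the filter.

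The third retinaldehyde dehydrogenase, Aldh1a3, lay below the filter on average, with 3.11, 15.3 and 11.1 in T+T and 24.0 in T+O. Cyp26a1, which breaks retinoic acid down, had 13.0, 10.6 and 23.4 in T+T and 11.6 in T+O, also below it. Fabp5, a fatty acid carrier that can also bind retinoic acid, had 176, 109 and 141 in T+T and 110 in T+O, with groups that overlapped. Of the 5 receptors measured, Rxra and Rxrb passed the filter. Rxrb had 298, 379 and 367 in T+T and 417 in T+O, a log2 difference of -0.26 (limma, adjusted p = 0.82), and the bright Rxra probe set had 221, 206 and 166 in T+T and 182 in T+O. A second Rxra probe set had 143, 114 and 112 in T+T and 96.3 in T+O, a log2 difference of 0.32 (limma, adjusted p = 0.80) with all T+T arrays above, whereas the bright one overlapped. The receptor Rara, known from Sertoli cells, had 17.6, 3.45 and 3.90 in T+T and 3.20 in T+O and lay below the filter.

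Genes that retinoic acid is known to induce in some cells gave 6 kept of 9 measured, with all 6 differences above 0, against 53% of all genes. This count is a description only: Tgm2 and Dmc1 had a T+O signal under the filter level and passed through T+T, and Hoxb1, at 0.008, lay below 0 after quantile and after median scaling. The highest was Tgm2, a transglutaminase, with 30.8, 41.8 and 23.8 in T+T and 13.6 in T+O, with T+T minus T+O at 0.81 ± 0.39 (SE) on the log2 scale (limma, adjusted p = 0.70). As its T+O signal was dim, its fold depends on the offset. Rarres2, which encodes the signalling protein chemerin, had 144, 149 and 119 in T+T and 109 in T+O, a difference of 0.31. The lowest were Hoxb1 and Dmc1, the meiotic recombinase, which had 25.3, 13.9 and 36.2 in T+T and 22.3 in T+O.

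**Figure D3:**
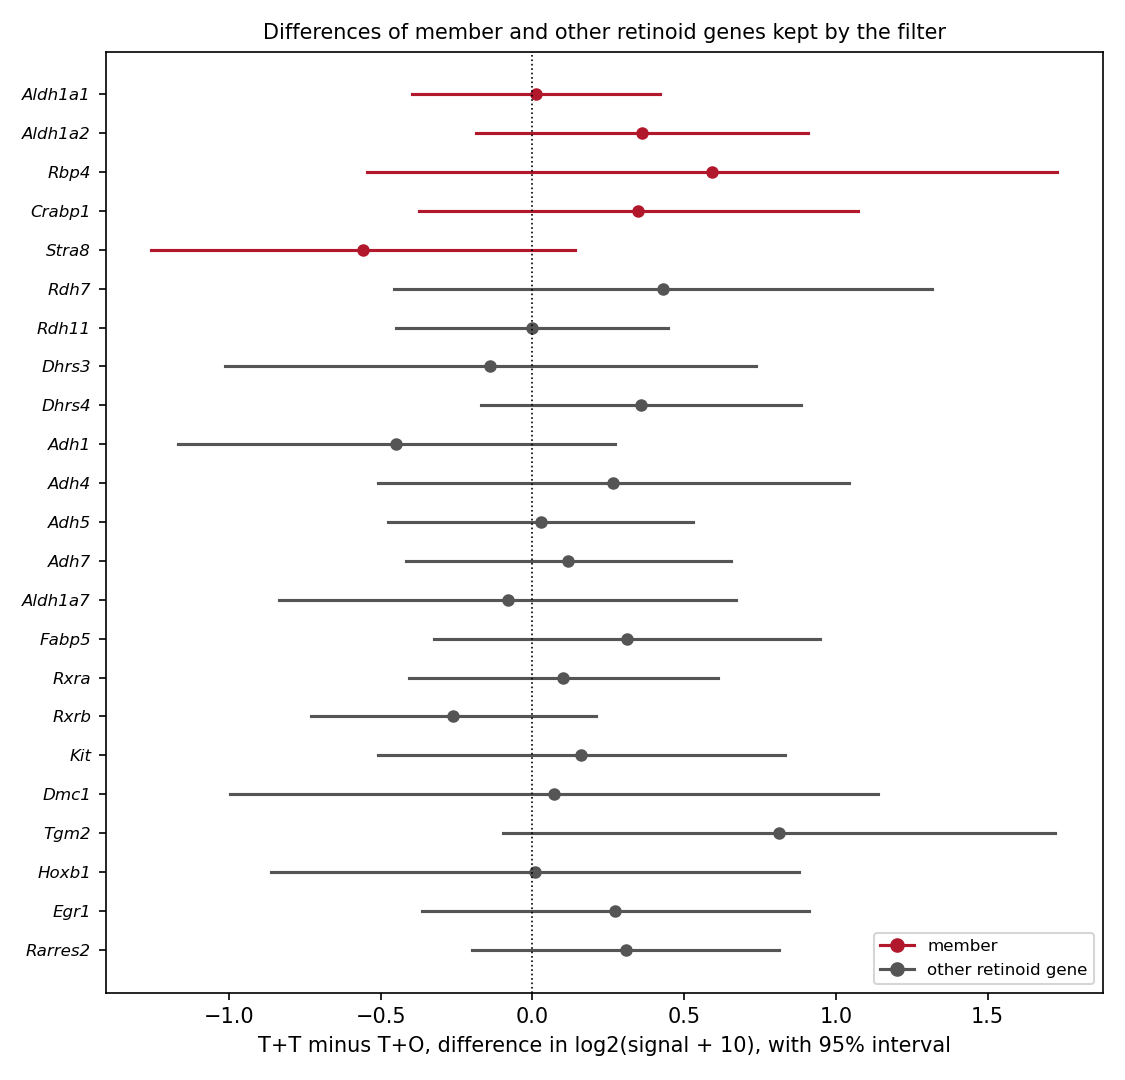
T+T minus T+O difference on the log2(signal + 10) scale (horizontal axis, points) with its 95% interval from limma (lines) for the 5 tested genes of the 6 (red) and the 18 other retinoid genes that passed the filter (grey). Every interval crosses 0, and those of Rbp4 and Tgm2 reach farthest to the right.

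Genes with the most similar profile were named by the root mean squared difference of log2 signals, each gene centred on its own mean over the 4 arrays. For Stra8 these were Tmem131, a membrane protein, with 48.1, 75.6 and 72.9 in T+T and 104 in T+O, and Nmt2, which attaches myristate to proteins, with 22.9, 39.0 and 37.8 in T+T and 54.4 in T+O, each at a difference of 0.03. Within a difference of 0.1 of Stra8 lay 37 of 5676 genes. For Aldh1a2 the nearest were Ndufab1 and Spag7 (0.02 and 0.03, with 128 genes within 0.1), and for Crabp1 they were Crygs and Cpt2 (0.03 each, with 118 within 0.1). For Aldh1a1 they were Stx2 and Fhl2 (0.01 each, with 613 within 0.1). Rbp4 had the fewest neighbours, Fosl2 and Pigu, at 0.10 each, and these were its only 2 within 0.1. No member was among the 2 nearest of another, and over 4 arrays such closeness describes these arrays only.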

How the data were processed

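Each deposited value is a linear signal intensity of 1 probe set on 1 array. The software the authors used is not named in any label or header used here. The 66 control probe sets were removed from 12488, and each array was multiplied to a common mean after trimming 2% at each end (factors 1.15, 1.33 and 0.779 for T+T replicates 1 to 3 and 0.915 for T+O). An offset of 10, the rounded 25th percentile, was added before log2, so fold changes understate those of dim probe sets. Probe sets above the 40th percentile of mean signal (22.7) were kept, 7453 in all. No detection calls were used. Symbols came from the platform annotation, updated by gene ID through RefSeq GRCm38.p6 (10817 of 10833 single-symbol probe sets matched). A further 396 carried several symbols and 1193 are unnamed here. A gene was represented by its brightest probe set.

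T+T minus T+O was tested with limma 3.58.1 in R 4.3.3 (lmFit, eBayes with intensity trend, two-sided, Benjamini-Hochberg over the kept probe sets, threshold 0.05, 2 residual and 5.74 prior degrees of freedom). Groups follow the titles. T+T replicate 3, untitled as to number, took its number from accession order. The number of arrays limits the precision, and at most 99 values were equal between 2 arrays. Members and lists were chosen with earlier results of these data known. Named genes were all members, of each role the 2 highest and 2 lowest list genes with others where they bear on a member, and the 2 most similar genes per member. Alternatives were other scalings, offsets and filters, no trend, each T+T array left out, and T+T replicates 2 and 3 read as withdrawn.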

Additional observations from a re-analysis of the deposited data

How the results depend on the processing

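No paired analysis was possible because only 1 array carries the title T+O and its number pairs it with none. Over 53 values of the 5 tested probe sets under other settings, 50 kept their direction and none passed the adjusted threshold (limma, lowest adjusted p = 0.43, Stra8 without T+T replicate 3). The 3 that turned were all of the bright Aldh1a1 probe set, at -0.018 after median scaling, -0.043 with the other T+T arrays than replicate 1 read as withdrawn and -0.056 without T+T replicate 3. Many of the 50 could not turn, as the filter and trend settings leave the difference itself unchanged. For Aldh1a2, Crabp1 and Stra8, all T+T arrays lay on one side of T+O. Leaving out an array or changing the offset therefore could not turn these genes either. Leaving out 1 T+T array gave -0.056 to 0.061 for Aldh1a1, 0.23 to 0.45 for Aldh1a2, 0.35 to 0.94 for Rbp4, 0.21 to 0.45 for Crabp1 and -0.66 to -0.39 for Stra8. Rbp4 and Crabp1 fell below the filter at the 60th percentile and have no value there. For T+T replicate 1 minus T+O, Crabp2 moved with the offset, to 0.11 at the 50th percentile and 0.70 at the 10th, against 0.33. With the offset at the 50th percentile, Rbp4 became 0.49 against 0.81 in that pair and 0.37 against 0.59 in T+T minus T+O. The 2 probe sets past the threshold over the whole array became 0 with quantile scaling, no filter, no trend or the withdrawn reading, 6 with median scaling or the offset at the 50th percentile, and 63, 12 and 1 when T+T replicates 1, 2 and 3 were left out in turn. The 301 at least 1.5-fold to one side (136 higher) became 155 (57 higher) with the offset at the 50th percentile, 523 (215) with no filter, 167 (62) with the filter at the 60th percentile, and 416 to 653 with 1 T+T array left out, the most without replicate 3. The direction of these moves was fixed by the rule. No filter or fewer T+T arrays can only raise the number, and a larger offset or a stricter filter can only lower it. For the wider retinoid list, 0 of 18 genes passed in the main fit, with quantile scaling and with the mean of all kept probe sets of a gene. With no filter, 0 of 31 passed. The list was not run under the other settings.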
